A study of Mus musculus with 36 samples.

Results

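The genes described are 10 markers of astrocytes and satellite glia: Gfap, Vim, Aqp4, Gja1, Slc1a2, Slc1a3, Glul, S100b, Aldh1l1 and Fabp7. They were taken by symbol from the 55487 genes of the deposited count table, and all 10 were found and passed the filter on low counts in both tissues. Bulk RNA of dorsal spinal cord and of dorsal root ganglion (DRG) from female mice was sequenced in 36 libraries, 18 per tissue. In each tissue there were 4 libraries of knockout (KO) mice after spared nerve injury (SNI), 4 of wild-type (WT) mice after SNI, 5 of naive KO mice and 5 of naive WT mice. SNI, a model of neuropathic pain, cuts branches of the sciatic nerve and spares the sural branch. The labels state no age, strain, segmental level, side or time after injury. The comparisons ask how injury and the knockout change the transcriptome.

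In the dorsal cord the products of these genes belong mainly to astrocytes, which take up glutamate, turn it into glutamine, buffer potassium and water and are joined by gap junctions. In a ganglion the closest counterpart is the satellite glial cell, which wraps each sensory neuron soma, and both glial types are known to raise GFAP after nerve damage. Several of the genes are also used by other cells, vimentin by Schwann cells, fibroblasts, endothelium and macrophages and S100B by Schwann cells and oligodendrocytes. In bulk tissue, fewer cells of a type and less RNA per cell cannot be told apart.

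Levels are given in CPM (counts relative to the library's TMM-scaled size). Naive DRG libraries A2 and A4 are titled wild type but have knockout in the genotype field, and were grouped as KO. Depth ran from 21.34 to 27.27 M (mega) expected counts per library. Libraries lettered A to C were naive and those lettered E and F were SNI, so a difference that goes with the letters and the injury cannot be told apart. Whether each library was a separate animal was not stated, so p values measure the spread between libraries. Below, a gene is called higher or lower at an adjusted p under 0.05 in edgeR's quasi-likelihood test, with Benjamini-Hochberg adjustment over all genes tested, and log2 fold changes are given ± SE.

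The 10 genes fall into 5 roles. Gfap (chr11:102887336-102900912, minus strand, GRCm38) and Vim (chr2:13573927-13582826, plus strand) encode intermediate filaments, glial fibrillary acidic protein and vimentin. Aqp4 encodes the water channel of astrocyte endfeet, and Gja1 (chr10:56377330-56402513, plus strand) the gap junction protein connexin 43. Slc1a2 (chr2:102658659-102790784, plus strand) and Slc1a3 (chr15:8634124-8710764, minus strand) encode the glutamate transporters GLT-1 and GLAST, and Glul (chr1:153899944-153909723, plus strand) encodes glutamine synthetase, which turns the glutamate taken up into glutamine. Aldh1l1 (chr6:90486427-90600203, plus strand) encodes a folate enzyme, 10-formyltetrahydrofolate dehydrogenase, widely used as a pan-astrocyte marker. S100b (chr10:76253853-76261159, plus strand) and Fabp7 (chr10:57784881-57788450, plus strand) encode a calcium-binding protein and the brain fatty acid binding protein, the second a marker of satellite glia in ganglia. Exon sequence was shared with another annotated gene in Slc1a2, Glul and Aldh1l1, over at most 499 bases, and these neighbours averaged 0.13 to 18.44 expected counts per library.

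The same 10 genes had very different levels in cord and in ganglia. In naive WT mice, 7 were higher in cord than in DRG, 2 were lower and S100b was not called, where 76.7% of the 20626 genes tested were called (36.6% higher and 40.1% lower). The glutamate transporter Slc1a2 averaged 2554 ± 238 CPM in cord and 14.6 ± 4.12 CPM in DRG (SD, n = 5 each), a log2 fold change of 7.45 ± 0.14 (adjusted p = 2.07e-31, edgeR). Gfap averaged 1087 ± 133 CPM in cord and 8.09 ± 2.67 CPM in DRG (7.07 ± 0.16, adjusted p = 4.18e-29), and Aqp4 751 ± 57.7 CPM in cord and 9.15 ± 1.15 CPM in DRG (6.36 ± 0.09, adjusted p = 4.19e-35). No cord library overlapped a DRG library for these 3 genes, which stood 82.1-fold to 175-fold higher in cord. Gja1, Aldh1l1, Slc1a3 and Glul were higher in cord by log2 fold changes of 3.15 ± 0.07, 2.68 ± 0.09, 2.27 ± 0.07 and 2.10 ± 0.06. Vim and Fabp7 went the other way, with Vim at 54.5 ± 18.6 CPM in cord and 668 ± 20.2 CPM in DRG (-3.62 ± 0.15) and Fabp7 at 51.0 ± 5.28 CPM in cord and 638 ± 143 CPM in DRG (-3.65 ± 0.17). S100b had nearly the same level in both tissues, 617 ± 45.1 CPM in cord and 571 ± 22.1 CPM in DRG (0.11 ± 0.06, adjusted p = 0.0806). It was called higher in cord, at 0.14 to 0.16, when naive WT library A3 or C1 of DRG or B7 or C5 of cord was left out, and by DESeq2 (0.13, adjusted p = 0.0457), but was at 0.09 (adjusted p = 0.207) without B3.

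**Figure D1:**
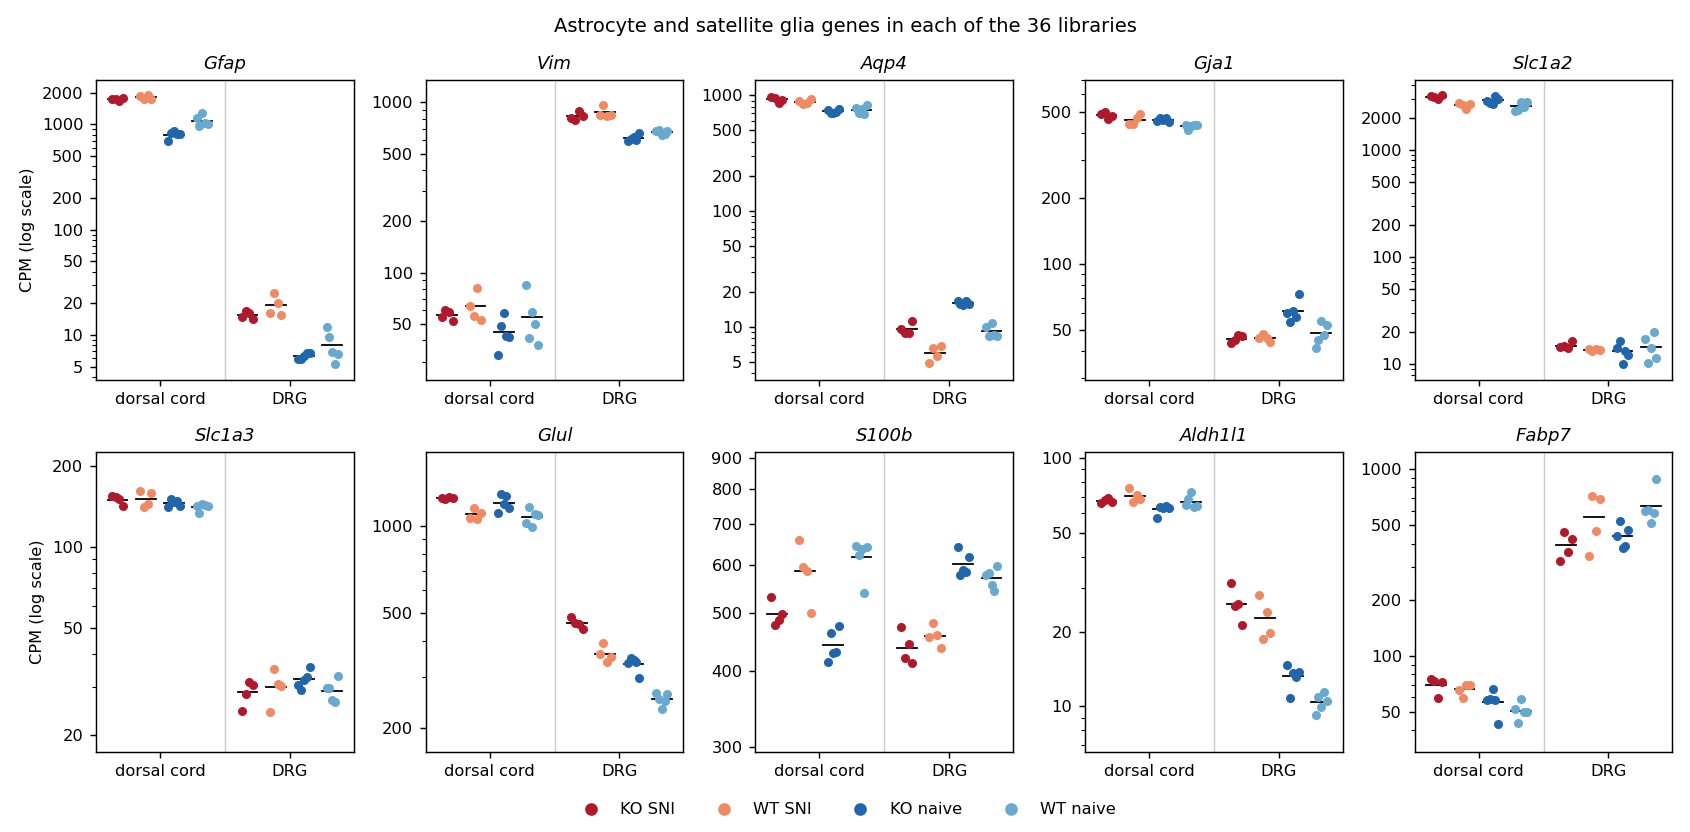
Level of each of the 10 genes in every library, in CPM on a log axis, with 1 point per library and a bar at the group mean; within each tissue the groups run KO SNI, WT SNI, KO naive and WT naive. Gfap, Aqp4 and Slc1a2 lay far higher in cord, Vim and Fabp7 far higher in DRG, and S100b at about the same level in both.

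**Figure D2:**
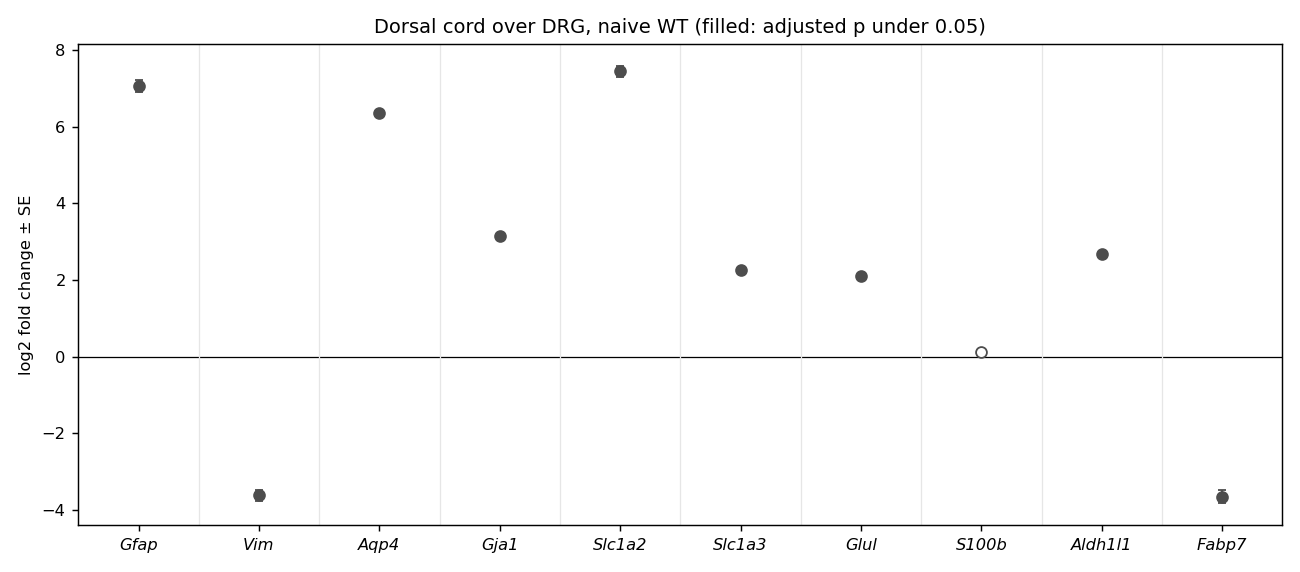
Log2 fold change of dorsal cord over DRG in naive WT libraries (n = 5 each), with SE bars, which are mostly smaller than the points. Slc1a2 stood at 7.45 and Fabp7 at -3.65.

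Ranked by mean CPM per kilobase of annotated exon, the order of the members also differed between tissues. In naive WT cord, S100b (416 ± 30.4 CPM per kb) and Glul (325 ± 21 CPM per kb) came first, followed by Gfap (258 ± 31.5), Slc1a2 (194 ± 18.1) and Aqp4 (121 ± 9.25). Gja1 (41.8 ± 0.968 CPM per kb) and Fabp7 (40.8 ± 4.23 CPM per kb) differed by less than their SD there, and Slc1a3, Aldh1l1 and Vim were lowest at 16.5 ± 0.444, 14.8 ± 0.917 and 11.5 ± 3.93 CPM per kb. In naive WT DRG, Fabp7 (510 ± 114 CPM per kb) and S100b (385 ± 14.9) led, Vim (141 ± 4.27) and Glul (75.8 ± 3.91) came next, and the other 6 members were all at or below 4.71 CPM per kb. Gfap, at 1.92 ± 0.632 CPM per kb, did not differ there beyond its SD from its neighbours Aldh1l1 (2.30 ± 0.184) and Aqp4 (1.47 ± 0.185). Fabp7, S100b, Vim and Glul were thus the members with the most RNA per length in ganglia. Other markers of the 2 glial types were present: all 20 of a wider astrocyte list were higher in cord than in DRG, with a median log2 fold change of 3.58 against -0.06 over all genes tested. They summed to 8557 to 9208 CPM in naive WT cord, against 925 to 1109 CPM in naive WT DRG. Of 14 satellite glia markers, 6 were higher and 8 lower in cord, the collagen gene Col28a1 at -5.35. This list summed to more in cord, at 11871 to 12777 CPM in naive WT cord against 3924 to 4488 CPM in naive WT DRG. Its sum is therefore not a measure of satellite glia. No gene of either list was at 0 in all libraries of a group.

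After injury 7 of the 10 genes changed in the ganglia of KO mice and 6 in those of WT mice. Gfap, Vim, Glul and Aldh1l1 rose in both genotypes, Aqp4 and S100b fell in both, and Gja1 fell in KO DRG. Of all 19496 genes tested, 28.5% were called in KO DRG (15.1% higher and 13.3% lower) and 24.9% in WT DRG (12.6% higher and 12.3% lower). Slc1a2, Slc1a3 and Fabp7 were called in neither genotype, at log2 fold changes of -0.20 to 0.21.

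Gfap had 15.0, 16.8, 16.3 and 14.3 CPM in the 4 SNI libraries of KO DRG, against 5.94, 5.91, 6.35, 6.82 and 6.71 CPM in the 5 naive ones. In WT DRG it had 16.3, 25.0, 20.2 and 15.4 CPM after SNI, against 11.9, 9.69, 6.98, 5.30 and 6.57 CPM in naive libraries. Every SNI library was above every naive library of its genotype. The log2 fold change was 1.33 ± 0.19 in KO DRG (adjusted p = 2.57e-05, edgeR) and 1.26 ± 0.18 in WT DRG (adjusted p = 4e-05), that is 2.52-fold and 2.39-fold. Even after injury Gfap in DRG stayed at 4.56 ± 1.04 CPM per kb or less, against 258 ± 31.5 CPM per kb in naive WT cord.

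Aldh1l1 rose by 1.01 ± 0.12 in KO DRG (adjusted p = 5.74e-06) and by 1.14 ± 0.12 in WT DRG (adjusted p = 1.59e-06). Its libraries held 31.3, 25.3, 25.8 and 21.3 CPM after SNI in KO DRG, against 14.7, 10.8, 13.6, 13.1 and 13.8 CPM in naive KO DRG. In WT DRG they held 28.2, 18.7, 24.0 and 19.7 CPM after SNI, against 9.20, 10.9, 9.98, 11.4 and 10.5 CPM in naive libraries. Again no SNI library overlapped a naive one of its genotype, and KO SNI DRG had the highest group mean, 25.9 ± 4.10 CPM.

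Glul rose by 0.50 ± 0.06 in KO DRG (adjusted p = 5.79e-06) and by 0.53 ± 0.06 in WT DRG (adjusted p = 3.26e-06). The KO DRG libraries had 485, 462, 458 and 442 CPM after SNI, against 336, 351, 344, 338 and 299 CPM when naive. The WT DRG libraries had 361, 394, 340 and 353 CPM after SNI, against 264, 253, 232, 249 and 262 CPM when naive. Glutamine synthetase RNA thus lay lowest in naive WT ganglia and highest in injured KO ganglia, with WT SNI and KO naive ganglia between them and overlapping each other. Vim rose by 0.46 ± 0.06 in KO DRG (adjusted p = 7.09e-06) and by 0.40 ± 0.06 in WT DRG (adjusted p = 4.14e-05), to 833 ± 42.2 CPM in KO SNI DRG against 619 ± 27.7 CPM in naive KO DRG, and to 876 ± 64.4 CPM in WT SNI DRG against 668 ± 20.2 CPM in naive WT DRG.

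The water channel gene fell while these rose. Aqp4 had 9.52, 8.89, 8.77 and 11.3 CPM in KO DRG after SNI, against 16.8, 15.9, 15.4, 16.6 and 15.9 CPM in naive KO DRG (-0.71 ± 0.10, adjusted p = 3.12e-05). In WT DRG it had 4.90, 6.60, 5.61 and 6.77 CPM after SNI, against 9.91, 8.29, 10.8, 8.46 and 8.27 CPM in naive libraries (-0.61 ± 0.11, adjusted p = 0.000264). S100b fell to 437 ± 27.5 CPM in KO SNI DRG, against 602 ± 27 CPM in naive KO DRG (-0.43 ± 0.06, adjusted p = 1.08e-05). In WT DRG S100b averaged 458 ± 18.1 CPM after SNI and 571 ± 22.1 CPM in naive libraries (-0.31 ± 0.06, adjusted p = 0.000352). The gap junction gene Gja1 averaged 45.6 ± 1.65 CPM in KO SNI DRG and 61.1 ± 7.31 CPM in naive KO DRG (-0.39 ± 0.08, adjusted p = 0.00148). In WT DRG it was not called, at 45.9 ± 1.60 CPM after SNI and 48.3 ± 5.61 CPM in naive libraries (-0.06 ± 0.08, adjusted p = 0.638).

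The start regions of the 4 genes that rose together in injured ganglia are shown to set side by side the sequence before the RefSeq starts of genes that moved the same way. Each is the RefSeq window (GRCm38.p6) from 250 bases before to the first 10 bases from RefSeq's annotated start, 5′ to 3′ on the gene's strand. The gene spans printed above come from another annotation and begin further upstream for Gfap, Vim and Aldh1l1. The windows of these genes therefore lie inside those spans. The windows are chr11:102897191-102897450 (minus strand) for Gfap, chr2:13574061-13574320 (plus) for Vim, chr1:153899679-153899938 (plus) for Glul and chr6:90550543-90550802 (plus) for Aldh1l1. Capitals mark matches to 6 motifs searched on both strands, with no match overlapping another. STAT factors were searched as TTCNNNGAA and AP-1 as TGANTCA. The core promoter motifs were the CCAAT box by its own letters, the TATA box as TATAAA and the GC box as GGGCGG, and the NFI palindrome is given by its name alone.
Gfap: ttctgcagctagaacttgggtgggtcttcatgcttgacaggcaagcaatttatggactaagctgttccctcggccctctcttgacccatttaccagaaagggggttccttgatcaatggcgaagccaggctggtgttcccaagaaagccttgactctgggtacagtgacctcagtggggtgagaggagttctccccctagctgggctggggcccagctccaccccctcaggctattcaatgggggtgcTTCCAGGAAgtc
Vim: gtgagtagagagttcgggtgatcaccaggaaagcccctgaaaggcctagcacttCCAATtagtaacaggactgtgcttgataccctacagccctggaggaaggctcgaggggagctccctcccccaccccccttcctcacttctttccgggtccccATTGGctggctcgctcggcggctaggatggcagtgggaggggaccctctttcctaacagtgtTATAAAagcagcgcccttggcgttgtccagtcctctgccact
Glul: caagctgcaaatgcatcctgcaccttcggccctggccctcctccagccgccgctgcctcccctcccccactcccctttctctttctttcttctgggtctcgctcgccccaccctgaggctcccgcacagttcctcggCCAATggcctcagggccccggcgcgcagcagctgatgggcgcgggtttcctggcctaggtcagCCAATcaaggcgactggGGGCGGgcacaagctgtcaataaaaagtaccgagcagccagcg
Aldh1l1: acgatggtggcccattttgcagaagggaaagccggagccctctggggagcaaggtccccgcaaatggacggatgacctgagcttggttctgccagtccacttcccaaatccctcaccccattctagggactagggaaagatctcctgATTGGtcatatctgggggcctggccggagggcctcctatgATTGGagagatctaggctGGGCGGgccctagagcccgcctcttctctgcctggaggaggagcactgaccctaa

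No one of these motifs was found in all 4 windows. Gfap held a STAT match, TTCCAGGAA, across its annotated start, from 2 bases before it to base 7, and no other match. Vim held 2 CCAAT boxes and a TATA box, while Glul and Aldh1l1 each held 2 CCAAT boxes and 1 GC box. Over the 9 members with a window in the table (Aqp4 was the one without), a STAT match was present in Gfap and Slc1a3, an AP-1 match in Gja1, a CCAAT box in 6, a TATA box in 2, a GC box in 3 and an NFI match in 0. Of 32851 windows of the same length, 7.33% held the STAT motif, 7.03% AP-1, 34.6% CCAAT, 12.7% TATAAA, 33.4% the GC box and 0.721% NFI. A match here is a string of letters, not a bound site.

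In dorsal cord, injury raised Gfap and Aqp4 in both genotypes and no other member was called. The background was low: 4.42% of the 18843 genes tested were called in KO cord (3.79% higher and 0.626% lower) and 2.88% in WT cord (2.61% higher and 0.271% lower). Gfap had 1743, 1741, 1666 and 1788 CPM in KO SNI cord, against 692, 823, 866, 809 and 816 CPM in naive KO cord (1.11 ± 0.07, 2.16-fold, adjusted p = 8.31e-09, edgeR). In WT cord it had 1872, 1753, 1896 and 1732 CPM after SNI, against 1156, 962, 1286, 1023 and 1006 CPM in naive libraries (0.74 ± 0.07, 1.67-fold, adjusted p = 2.47e-06). The KO and WT libraries overlapped after injury and did not overlap before it. Aqp4 rose to 927 ± 53.3 CPM in KO SNI cord, against 731 ± 27.7 CPM in naive KO cord (0.34 ± 0.05, adjusted p = 3.9e-05). In WT cord Aqp4 averaged 886 ± 40.8 CPM after SNI and 751 ± 57.7 CPM in naive libraries (0.24 ± 0.05, adjusted p = 0.00409). Vim, which rose in DRG, was not called in cord, at 0.33 ± 0.22 in KO and 0.21 ± 0.22 in WT cord, where its naive WT libraries ran from 37.7 to 84.5 CPM. Fabp7 was not called either, at 0.29 ± 0.11 in KO cord (adjusted p = 0.196) and 0.38 ± 0.11 in WT cord (adjusted p = 0.0992). In WT cord its SNI and naive libraries did not overlap, and it was called by DESeq2 (adjusted p = 0.0092) and in an edgeR fit of these groups alone (adjusted p = 0.00885). In the edgeR fit of the KO groups alone, S100b was called in KO cord (0.17, adjusted p = 0.0211). The other 6 members had log2 fold changes between -0.08 and 0.16 in both genotypes.

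**Figure D3:**
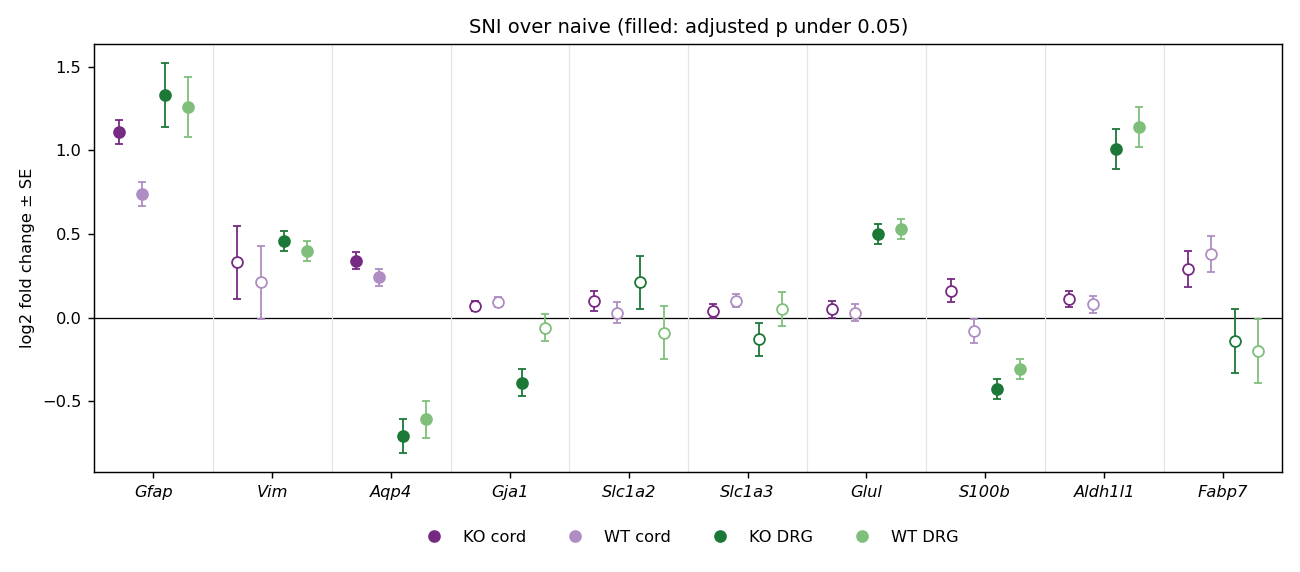
Log2 fold change of SNI over naive for each gene with SE bars, in KO and WT cord and in KO and WT DRG (4 SNI against 5 naive libraries each); filled points had an adjusted p under 0.05. Gfap lay above 0 in all 4 settings, Aqp4 above 0 in cord and below 0 in DRG, and Glul and Aldh1l1 were raised in DRG and near 0 in cord.

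The difference between the injury responses of KO and WT mice was called for no member in either tissue by edgeR or DESeq2, where 0% of all genes were called in cord and 0.0256% in DRG by edgeR. In cord the largest was Gfap, whose response was larger in KO by 0.37 ± 0.10 (unadjusted p = 0.0022, adjusted p = 0.737), followed by S100b (0.25 ± 0.09, unadjusted p = 0.018, adjusted p = 0.737). In DRG it was Gja1, at -0.32 ± 0.12 (unadjusted p = 0.0118, adjusted p = 0.786). These were the only members with an unadjusted p under 0.05, 2 in cord and 1 in DRG. Over all genes, 1150 in cord and 1160 in DRG had one, and DESeq2 called 0 genes in cord and 25 in DRG.

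The injury response itself differed between the tissues for several members, tested in 1 fit of all 36 libraries. Cord minus DRG, the response of Aqp4 was 1.09 ± 0.11 in KO mice (adjusted p = 4.31e-09) and 0.86 ± 0.12 in WT mice (adjusted p = 1.38e-06), with a rise in cord and a fall in DRG. Aldh1l1 rose more in DRG, the difference being -0.86 ± 0.13 in KO mice (adjusted p = 8.01e-06) and -1.05 ± 0.13 in WT mice (adjusted p = 2.89e-07). Glul likewise differed by -0.41 ± 0.08 in KO mice (adjusted p = 0.000248) and by -0.49 ± 0.08 in WT mice (adjusted p = 2.49e-05). In KO mice S100b (0.63 ± 0.09, adjusted p = 2.25e-06) and Gja1 (0.50 ± 0.09, adjusted p = 0.000175) also differed, which makes 5 of 10 members in KO mice, with 17.2% of all genes called, and 3 of 10 in WT mice, with 12.5%. The shares above and below 0 were 10.5% and 6.69% in KO mice and 6.92% and 5.59% in WT mice. Gfap rose in both tissues, and its difference was not called in KO mice (-0.18 ± 0.19) or in WT mice (-0.51 ± 0.19, adjusted p = 0.0739). In WT mice it was called by DESeq2 (-0.53, adjusted p = 0.043) and, at -0.58 to -0.69, by edgeR without naive library A1, A3 or A7 or SNI library E1 or F3, but was at -0.35 (adjusted p = 0.246) without SNI library E3. S100b was called in WT mice without E3 or F7 (0.27 and 0.28) and was at 0.17 without B7. Fabp7 was called without E3 or F3 (0.74 and 0.71) and was at 0.39 without E1.

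KO mice had higher Glul in all 4 settings and higher Aqp4 in ganglia. In naive DRG, Aqp4, Gja1, Glul and Aldh1l1 were higher and Fabp7 lower in KO than in WT libraries, 5 of 10 members where 28.2% of all genes were called (12.8% higher and 15.4% lower). In SNI DRG, Aqp4 and Glul were higher in KO, 2 of 10 where 5.10% of all genes were called (2.39% higher and 2.71% lower). The Aqp4 libraries listed above did not overlap between KO and WT in naive DRG (0.80 ± 0.10, 1.74-fold, adjusted p = 1.69e-05, edgeR) or in SNI DRG (0.69 ± 0.11, 1.62-fold, adjusted p = 0.00064). Glul was higher in KO by 0.39 ± 0.06 in naive DRG (adjusted p = 0.00023) and by 0.36 ± 0.07 in SNI DRG (adjusted p = 0.00226), also with no overlap. Without libraries A2 and A4 the naive differences were 0.80 for Aqp4 (adjusted p = 0.000549) and 0.37 for Glul (adjusted p = 0.00384). Gja1 kept its call (0.39, adjusted p = 0.0125), while Aldh1l1 (0.37, adjusted p = 0.0684) and Fabp7 (-0.64, adjusted p = 0.0627) lost theirs.

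The other 3 naive calls in DRG were smaller or less stable. Gja1 was higher in naive KO DRG by 0.32 ± 0.08 (adjusted p = 0.00762), with 59.8, 54.1, 60.9, 57.4 and 73.3 CPM in KO libraries, against 41.4, 44.9, 55.1, 47.2 and 52.8 CPM in WT libraries. Its ranges overlapped by 1 library of each genotype, and in SNI DRG the means were 45.6 CPM in KO and 45.9 CPM in WT. Aldh1l1 averaged 13.2 ± 1.45 CPM in naive KO DRG and 10.4 ± 0.832 CPM in naive WT DRG (0.33 ± 0.12, adjusted p = 0.0491). That call was lost, with adjusted p between 0.0638 and 0.117, without any 1 of A1, A2, A3, B1, B2, B4, C1 and C2. It was also lost by edgeR with no filter on low counts (adjusted p = 0.0566) and with the library letter as a term (0.0582). Fabp7 averaged 441 ± 62.3 CPM in naive KO DRG and 638 ± 143 CPM in naive WT DRG (-0.55 ± 0.18, adjusted p = 0.0325), where library C1 of the WT group held 885 CPM. Its call was lost without A2, A3, B2, B4, C1 or C2, the adjusted p then lying between 0.0501 and 0.109. With no filter on low counts the Fabp7 call was lost too (adjusted p = 0.0919, edgeR). In SNI DRG Fabp7 was at -0.50 ± 0.20 (adjusted p = 0.171) and was called, at -0.68, without WT library E1, while without WT library E3 it was at -0.36 (adjusted p = 0.491). Gfap was not called in naive DRG (-0.37 ± 0.18, adjusted p = 0.127), but was called at -0.48 (adjusted p = 0.0394) without WT library B3 and was at -0.18 (adjusted p = 0.408) without WT library A1.

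In naive cord, Gfap and S100b were lower and Gja1, Slc1a2 and Glul higher in KO than in WT mice, 5 of 10 members where 19.7% of all genes were called (9.79% higher and 9.94% lower). Gfap averaged 801 ± 64.7 CPM in naive KO cord and 1087 ± 133 CPM in naive WT cord, with no overlap of the libraries listed above (-0.44 ± 0.07, 1.36-fold lower, adjusted p = 0.000304). S100b had 414, 462, 429, 431 and 475 CPM in naive KO cord, against 645, 623, 638, 538 and 643 CPM in naive WT cord (-0.48 ± 0.06, adjusted p = 3.88e-05). For both genes every KO library lay below every WT library. The glutamate handling genes were higher by small amounts, Slc1a2 at 2902 ± 196 CPM in KO and 2554 ± 238 CPM in WT (0.18 ± 0.06, adjusted p = 0.0223) and Glul at 1207 ± 78.1 CPM in KO and 1079 ± 69.8 CPM in WT (0.16 ± 0.04, adjusted p = 0.0124). Both overlapped between genotypes here. Slc1a2 ran from 2699 to 3199 CPM in KO and from 2299 to 2807 CPM in WT. Glul ran from 1111 to 1294 CPM in KO and from 993 to 1169 CPM in WT. Gja1 averaged 459 ± 8.16 CPM in KO and 429 ± 9.92 CPM in WT (0.10 ± 0.03, adjusted p = 0.0394). The Gja1 call was lost without A6, A7, A8, B5, B7 or B8 (adjusted p 0.0507 to 0.0981) and that of Slc1a2 without A5, A7 or B8 (0.059 to 0.0743), while Fabp7 (0.16 ± 0.10) gained one without C6 (0.25) and was at 0.10 without B6. The Gja1 call was also lost by edgeR with no filter on low counts (adjusted p = 0.0934) and with the library letter (0.062) or replicate number (0.0722) as a term. By limma on the normalised table Gja1 was at 0.06 (adjusted p = 0.166). In an edgeR fit of these groups alone, Slc1a2 lost its call (adjusted p = 0.0549).

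After injury the Gfap difference between genotypes in cord was not called (1735 ± 50.7 CPM in KO and 1813 ± 82.6 CPM in WT, -0.07 ± 0.08). Slc1a2 and Glul were the 2 members called, where 6.26% of all genes were (2.95% higher and 3.31% lower). Slc1a2 had 3215, 3099, 2982 and 3225 CPM in KO SNI cord, against 2752, 2612, 2409 and 2655 CPM in WT SNI cord (0.26 ± 0.06, adjusted p = 0.0112). Glul had 1254, 1245, 1264 and 1258 CPM in KO SNI cord, against 1072, 1159, 1062 and 1113 CPM in WT SNI cord (0.19 ± 0.05, adjusted p = 0.0226). Neither gene overlapped between genotypes, and the 4 KO libraries of Glul lay within 1245 and 1264 CPM. The Glul call was lost without E5, E6, F5 or F8 (adjusted p 0.0527 to 0.082). S100b was at 498 ± 23.0 CPM in KO and 585 ± 65.4 CPM in WT (-0.24 ± 0.07, adjusted p = 0.0548), and was called at -0.31 without WT library F7 and by DESeq2 (adjusted p = 0.0173), but was at -0.17 (adjusted p = 0.159) without WT library E5. Slc1a3, the second glutamate transporter, was called in none of the 8 comparisons of injury or genotype, with group means of 141 to 151 CPM in cord and 28.7 to 32.1 CPM in DRG.

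**Figure D4:**
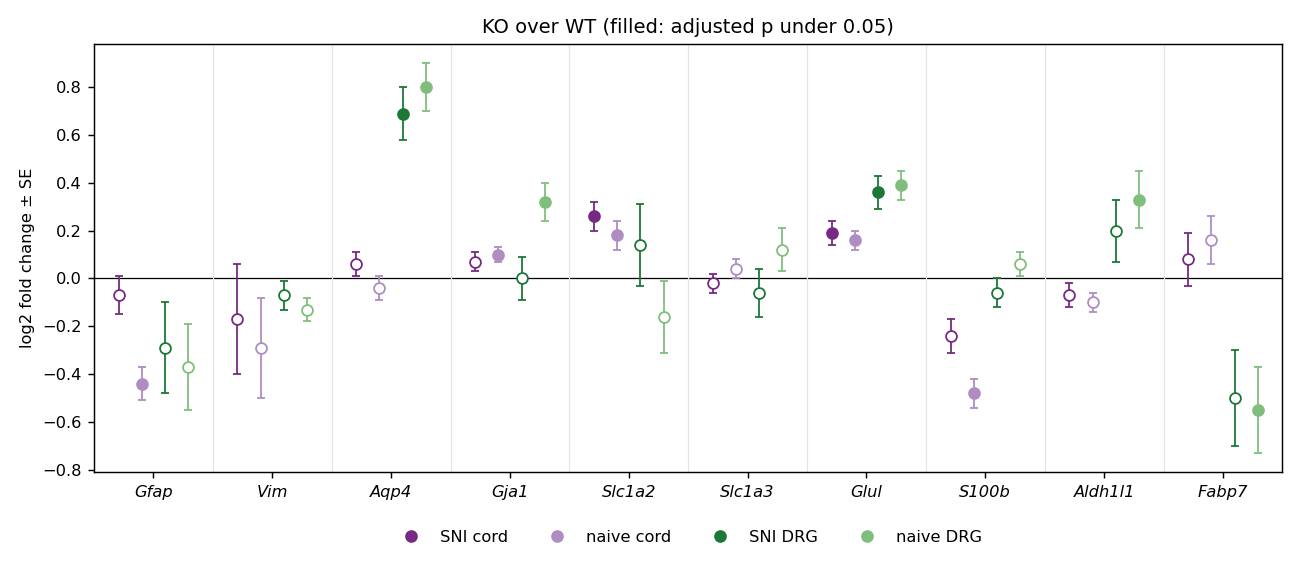
Log2 fold change of KO over WT for each gene with SE bars, in SNI cord, naive cord, SNI DRG and naive DRG; filled points had an adjusted p under 0.05. Glul was filled and above 0 in all 4 settings, Aqp4 was raised in DRG alone among the calls, and Gfap and S100b were filled below 0 in naive cord.

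The genotype differences of cord and DRG were set against each other in the fit of all libraries, a comparison added after the values were seen. In naive mice the KO effect was lower in cord than in DRG for Aqp4 (-0.86 ± 0.10, adjusted p = 2.59e-06), S100b (-0.56 ± 0.08, adjusted p = 5.08e-05), Aldh1l1 (-0.45 ± 0.13, adjusted p = 0.0127), Glul (-0.24 ± 0.08, adjusted p = 0.0219) and Gja1 (-0.24 ± 0.09, adjusted p = 0.0479). It was higher in cord for Fabp7 (0.70 ± 0.22, adjusted p = 0.0258). That made 6 of 10 members, where 19.6% of all genes were called (8.24% higher and 11.4% lower in cord). In SNI mice Aqp4 was the 1 member called (-0.62 ± 0.12, adjusted p = 0.0068), with 0.524% of all genes. In naive cord Aqp4 itself was not called, at 731 CPM in KO and 751 CPM in WT. The Gja1 call was lost without any 1 of A1, A3, A5, A6, A8, B2, B3, B5, B6, B7 and C2 (adjusted p 0.0517 to 0.116) and with the replicate number as a block (adjusted p = 0.0758), that of Fabp7 without A7 or C1 (0.64 and 0.54), and that of Glul without A6 (-0.21) and without A2 and A4 together (-0.22), and Slc1a2 (0.32 ± 0.16) gained one without A3 (0.41) and was at 0.18 without B3. With no filter on low counts, Gja1 (adjusted p = 0.0545, edgeR) and Fabp7 (0.0675) lost their calls too.

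Genes of the same pathways were read from lists drawn up for this tissue. Of 24 genes known from reactive astrocytes, 12 rose and 0 fell after SNI in KO cord and 8 rose and 0 fell in WT cord, with median log2 fold changes of 0.47 and 0.24 against -0.01 over all genes tested in each. The serine protease inhibitor gene Serpina3n (0.97 ± 0.07 in KO and 0.72 ± 0.07 in WT cord), the hyaluronan receptor gene Cd44 (0.70 and 0.72) and the transcription factor gene Stat3 (0.45 and 0.24) were among them. Over all genes tested, 3.79% were called higher and 0.626% lower in KO cord, and 2.61% and 0.271% in WT cord. In DRG, 12 of the 24 rose in KO mice and 11 in WT mice with 0 lower in either, led by Cd109 at 1.66 in KO and 1.52 in WT DRG. There 15.1% of all genes were higher and 13.3% lower in KO mice, and 12.6% and 12.3% in WT mice. Beside the same shares, 1 of the wider astrocyte list of 20 genes rose and 0 fell after SNI in KO cord, and 0 rose and 1 fell in WT cord. In DRG 1 rose and 7 fell in KO mice and 0 rose and 3 fell in WT mice, the glycolytic enzyme gene Aldoc at -0.65 in KO and -0.43 in WT DRG. Of 14 satellite glia markers, 2 were higher in KO DRG and 3 in WT DRG after SNI with 0 lower in either, beside 15.1% and 12.6% of all genes called higher.

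The genotype comparisons gave the same lists in other proportions. In naive DRG, where 12.8% of all genes were called higher and 15.4% lower, 8 of 20 astrocyte markers were higher and 0 lower in KO than in WT mice, among them Aldoc (0.36) and the sodium pump subunit gene Atp1b2 (0.37), with a median of 0.19 against -0.02 over all genes. In naive cord 2 of the 20 were higher and 3 lower, where 9.79% of all genes were higher and 9.94% lower. In SNI DRG 0 were higher and 0 lower, where 2.39% of all genes were higher and 2.71% lower. In SNI cord 2 were higher and 0 lower, where 2.95% of all genes were higher and 3.31% lower. Of 14 genes of the glutamate and glutamine cycle, 7 were higher and 1 lower in naive KO DRG. The higher ones included the amino acid transporter genes Slc38a2 (0.41) and Slc38a1 (0.62), which carry glutamine. In SNI DRG 2 of the 14 were higher, in naive cord 2 and in SNI cord 1, with 0 lower in each. Slc38a2 was also higher in KO in SNI DRG (0.30), naive cord (0.37) and SNI cord (0.26). Of 15 genes for gap junctions, water and potassium tested in DRG, 4 were higher and 1 lower in KO in naive mice, and 1 higher and 1 lower in SNI mice. Of 17 tested in cord, 0 were higher and 5 lower in naive mice, and 0 higher and 2 lower in SNI mice. The water channel gene Aqp1 was higher in KO in naive DRG (0.30) and SNI DRG (0.47), as were Dag1 (0.38) and Hepacam (0.42) in naive DRG. The connexin 32 gene Gjb1 was lower in naive cord (-0.32) and SNI cord (-0.23). The inward rectifier gene Kcnj16 was the list's 1 lower gene in DRG and was lower in cord too, at -1.01 in SNI DRG, -1.22 in naive DRG, -0.71 in SNI cord and -0.79 in naive cord. Of 14 satellite glia markers, 2 were higher and 0 lower in naive KO DRG, and 0 were higher and 1 lower in SNI DRG. Of the 13 tested in cord, 0 were higher and 6 lower in naive mice, and 1 higher and 1 lower in SNI mice. Of 24 reactive astrocyte genes, 7 were lower and 3 higher in naive KO DRG, where 15.4% of all genes were lower and 12.8% higher. In naive KO cord 4 were lower and 1 higher, where 9.94% of all genes were lower and 9.79% higher. In SNI mice 3 were lower and 1 higher in DRG, where 2.71% of all genes were lower and 2.39% higher. In SNI cord 0 were lower and 2 higher, Stat3 and Serpina3n, where 3.31% of all genes were lower and 2.95% higher.

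**Figure D5:**
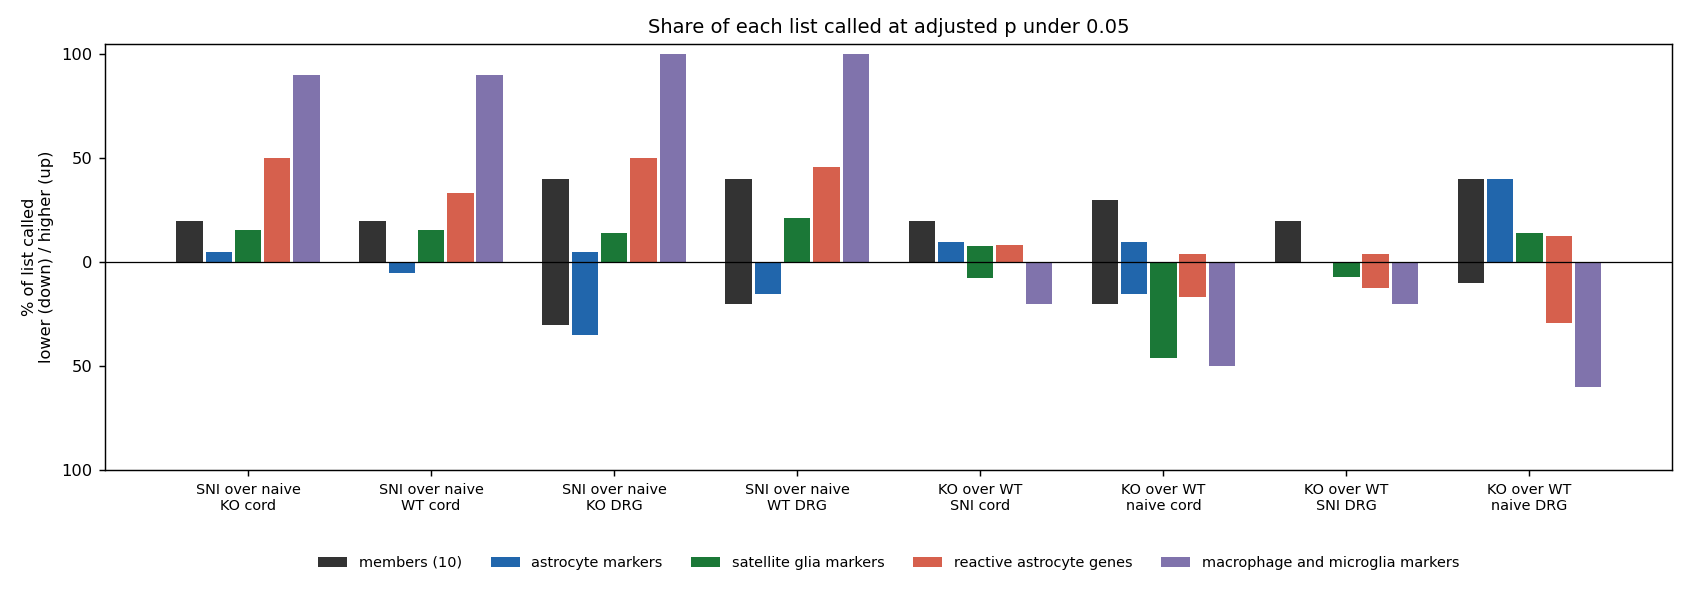
Share of each gene list called higher (upward bars) or lower (downward bars), in percent of the list's genes tested, for the 4 comparisons of SNI over naive and the 4 of KO over WT. Macrophage and microglia markers rose after SNI in every setting, 10 of 10 in DRG and 9 of 10 in cord, and reactive astrocyte genes rose for 12 of 24 in KO cord, 8 in WT cord, 12 in KO DRG and 11 in WT DRG.

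Markers of other cell types moved along with several of these results. Macrophage and microglia markers, 10 genes, rose after SNI, and their summed level ran from 283 to 364 CPM in KO SNI DRG against 81.5 to 136 CPM in naive KO DRG, and from 309 to 526 CPM in WT SNI DRG against 120 to 209 CPM in naive WT DRG. In cord it ran from 449 to 475 CPM in KO SNI against 168 to 199 CPM in naive KO libraries, and from 458 to 500 CPM in WT SNI against 203 to 236 CPM in naive WT libraries. In naive mice 6 of the 10 were lower in KO DRG and 5 in KO cord. Beside this and the list counts below, 15.4% of all genes tested were lower and 12.8% higher in naive KO DRG. For naive KO cord these shares were 9.94% lower and 9.79% higher. Blood markers, 5 genes, were all lower in naive KO DRG, where they summed to 189 to 600 CPM against 721 to 3439 CPM in naive WT DRG. Neuron markers were higher for 5 of 10 genes in naive KO DRG, at 10655 to 12605 CPM summed against 7895 to 10484 CPM in naive WT DRG. In naive cord, 3 of 10 Schwann cell markers were lower in KO, and the list summed to 11416 to 14205 CPM in KO and 13939 to 14969 CPM in WT. The same list summed to only 6079 to 7438 CPM in naive WT DRG, though 7 of its genes were lower and 3 higher in cord than in DRG. Its sum in cord is therefore not a measure of Schwann cells. Of 10 oligodendrocyte markers, 3 were lower in naive KO cord too, and the list summed to 22790 to 26893 CPM in KO and 25638 to 27981 CPM in WT. Other lists also had lower genes in naive KO cord: 4 of 5 blood markers, 2 of 6 ependymal markers and 3 of 10 neuron markers. Of the neuron markers 1 was higher. In naive KO DRG, 6 of 7 cell cycle genes were lower (15.9 to 19.4 CPM summed in KO and 21.9 to 76.9 CPM in WT), as were 4 of 7 endothelial markers (95.6 to 102 CPM in KO and 98.7 to 126 CPM in WT) and 3 of 8 fibroblast markers (2017 to 2506 CPM in KO and 2153 to 3944 CPM in WT). Apart from ependymal markers in DRG, no gene of these lists was at 0 in all libraries of a group. The part of these cells in the members' differences was not tested.

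The genes whose pattern over the 18 libraries of a tissue was most like that of Gfap were found by the root mean square distance of log2(CPM + 1), taken as a deviation from the naive WT mean. In cord, among 14397 genes, the nearest included Tyrobp (distance 0.126), AU020206 (0.15), Parvg (0.168) and Tmem173 (0.171), where Gfap itself lay 0.536 from no change. In DRG, among 14818 genes, they were Tgif1 (0.218), P2ry6 (0.23), Cyth4 (0.248), Tmem173 (0.253) and C4b (0.255), against 0.765 for Gfap itself. Tyrobp, a signalling adaptor gene of microglia and macrophages and one of the macrophage list, was at 1.18 and 0.97 for SNI over naive in KO and WT cord and at -0.48 for KO over WT in naive cord, where Gfap was at 1.11, 0.74 and -0.44. Tyrobp was picked for its small distance from Gfap in these same libraries, so like fold changes follow from that choice. Tmem173, which encodes the innate immune adaptor STING, was the 1 gene named in both tissues.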

How the data were processed

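Bulk RNA was prepared with a stranded mRNA kit, per the labels' protocols. The authors deposited expected counts per gene, made with HISAT2 and RSEM on GRCm38 after FastQC 0.11.5, per the submitters' processing notes. Versions of HISAT2 and RSEM and their settings are not recorded there. In library E1, 9150 deposited cells had a decimal comma (a column recorded under another unit for that reason), and 1 lost cell was restored as 1780.86 from the deposited normalised signal, which is each raw column times 1 factor, tested on the files. Expected counts were rounded. edgeR 4.0.16 (R 4.3.3) fitted TMM-scaled quasi-likelihood models per tissue (18 libraries) and over all 36, after its filter on low counts, with Benjamini-Hochberg adjustment. CPM comes from the fit of all libraries. The edgeR test of SNI over naive in WT mice was tried on simulated counts for each tissue, and the other comparisons were not simulated. All 10 members are named, for the other lists up to 4 called genes of lowest adjusted p per comparison, and for Gfap the 5 nearest genes per tissue, except that some items are not reported here. The members, lists and tests were chosen with earlier results of these data known, and the comparisons of the KO effect between tissues were added after the values were seen. Alternatives were DESeq2 1.42.0, limma 3.58.1 on the normalised table with a pseudocount of 1, no filter, fits of the groups compared alone, library-letter and replicate-number terms, and each library left out in turn. Promoter windows are RefSeq's (GRCm38.p6).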

Additional observations from a re-analysis of the deposited data

Results flagged for a closer look

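In 7 of 80 sets of libraries (1 gene in 1 group), the highest or lowest library stood far from the others by Dixon's test, which chance gives in about 1 in 20 groups. The high ones were Vim at 972 CPM in library E3 of WT SNI DRG and Fabp7 at 885 CPM in library C1 of naive WT DRG. The low ones were Glul at 299 CPM in C2 of naive KO DRG, S100b at 538 CPM in B7 and Slc1a3 at 134 CPM in A7 of naive WT cord, Aldh1l1 at 57.5 CPM in A6 of naive KO cord, and Fabp7 at 59.4 CPM in F6 of KO SNI cord.

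The injury response differed between cord and DRG, as cord minus DRG on the log2 scale, for 5 members in KO mice: Aqp4 (1.09), S100b (0.63), Gja1 (0.50), Glul (-0.41) and Aldh1l1 (-0.86). In WT mice it differed for Aqp4 (0.86), Glul (-0.49) and Aldh1l1 (-1.05). The KO effect differed between the tissues in naive mice for Fabp7 (0.70), Glul (-0.24), Gja1 (-0.24), Aldh1l1 (-0.45), S100b (-0.56) and Aqp4 (-0.86), and in SNI mice for Aqp4 (-0.62). Each of these differences was tested directly in the edgeR fit of all 36 libraries.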

How the results depend on the processing

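Of 55 member values called, 47 were called under every alternative run, and none of their 978 alternative values changed sign, though 55 lost the call. Another 12 values gained a call under some alternative, and of the 1562 alternative values of members called under no setting, 38 had the other sign. The injury calls in DRG were 7 in KO and 6 in WT mice under every alternative run. The KO over WT count in naive DRG, 5, was 3 with no filter on low counts and 3 without libraries A2 and A4. With 1 library left out it ranged from 3 to 6, the count in naive cord (5) from 3 to 6, that in SNI cord (2) from 1 to 3 and that of cord minus DRG injury responses in WT mice (3) from 3 to 5. Why these counts moved was not tested.

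The replicate numbers were checked for pairing by the correlation of deviations from group means. For cord and DRG libraries of one number it was 0.023 to 0.364 (median 0.179), positive in all 18 pairs and above 0.1 in 14. That is a hint of pairing from the data, but the labels do not state it and not every pair passed 0.1, so the fits above have no block. For KO and WT libraries it was -0.209 to 0.164 in cord and -0.213 to 0.406 in DRG, above 0.1 in 3 of 9 pairs of each tissue. With the replicate block, the KO over WT count was 5 in naive DRG, 2 in SNI DRG, 4 in naive cord (Gja1 lost) and 3 in SNI cord (S100b gained, -0.23, adjusted p = 0.0277 by edgeR). It was 9 for cord over DRG, 5 and 3 for the injury responses in KO and WT mice, and 5 (Gja1 lost, adjusted p = 0.0758) and 1 for the KO effect in naive and SNI mice.

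With 4 or 5 libraries a group, the calls named above as lost without 1 library lie near the threshold.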
